A study of Mus musculus with 21 samples.

Results

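The 3 libraries labelled 2i+LIF HP were compared with the 3 labelled 2i+LIF LP, so that 6 of the 21 mRNA-seq libraries of the series enter the comparison. The libraries were chosen by their labels alone. All came from E14Tg2a, a line of male mouse embryonic stem cells of the 129 strain in which a single allele of Rex1 (Zfp42) carries an insertion of the destabilised fluorescent protein GFPd2. The study concerned protocols that keep such cells pluripotent, with sampling at zero passage and after 1 and 2 months of culture. Per the labels' protocols, all groups shared 1 week in NDiff227, a serum-free basal medium, with 3 µM CHIR99021 and 1 µM PD0325901, followed by passages with alternating addition and removal of CH, PD and LIF. 2i is the usual name for the pair of inhibitors, and the labels did not state which agents were present when RNA was taken. They also did not state whether LP or HP was the longer culture, and neither was assigned a time here. Levels in the groups CH+LIF LP, CH+LIF HP, LIF LP, LIF HP and 2i+LIF PO, the last read here as zero passage, are given beside some results. A single cell line was used and nothing states that replicates came from separate cultures, so p-values measure only the spread between these libraries, which may be technical.

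Mouse embryonic stem cells keep the naive state of the early epiblast when differentiation signals are blocked and self-renewal signals are supplied. CHIR99021 (CH) inhibits GSK3, so that beta-catenin accumulates and TCF/LEF targets such as Axin2, Sp5 and Lef1 are expressed. PD0325901 (PD) inhibits MEK, the kinase that activates ERK, and so lowers immediate-early genes such as Egr1 and feedback inhibitors such as Dusp6 and Spry4. LIF is a cytokine that acts through STAT3.

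Gene counts in the 6 libraries ranged from 1132126 to 2165518. The library labelled 2i+LIF LP replicate 1 stood apart: 31.65% of its gene counts fell on Gm42418, a locus that overlaps ribosomal RNA sequence, 0.2099% were mitochondrial and 4.236% were from ribosomal protein genes, against 6.633 to 10.92%, 1.25 to 4.615% and 9.759 to 18.98% in the other 5. Over log2 CPM of the genes tested it correlated at 0.797 and 0.776 with LP replicates 2 and 3, but at 0.817 with HP replicate 1, whereas LP replicates 2 and 3 correlated at 0.937. HP replicate 1 correlated at 0.902 with LP replicate 2 and at 0.91 and 0.876 with the other HP libraries. The 12 embryonic stem cell markers all had counts, with a summed level of 1450 to 2220 CPM in HP and 2170 to 3470 CPM in LP, where CPM (counts-per-million) are gene counts scaled by library total and TMM factor. Outside the comparison, PO replicate 1 also stood apart in the shared fit, with 39.09% mitochondrial and 2.987% ribosomal protein counts, against 7.549 and 7.834% and 16.72 and 12.33% in PO replicates 2 and 3. CPM are not divided by gene length, so each gene is compared across libraries and not with other genes.

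HP and LP differed at 391 of 10643 genes tested (3.67%) at an edgeR adjusted p under 0.05, of which 173 were higher in HP (1.63%) and 218 lower (2.05%). Levels did not overlap between the groups for 354 of the 391, against 16.8% of all genes tested (8.41% with HP above and 8.43% with LP above), and 263 differed at least 4-fold. Without LP replicate 1, 408 of 11058 genes were called (3.69%), 186 higher (1.68%) and 222 lower (2.01%). Of the 391 genes, 265 were called in the same direction without that library, 0 were called in the opposite direction and 126 were not called. HP replicates 2 and 3 carried more of the calls than LP replicate 1 did: the count was 136 without HP replicate 2 and 169 without HP replicate 3, against 486 without HP replicate 1, 281 without LP replicate 2 and 351 without LP replicate 3. It was 590 without PO replicate 1. A fit of the 6 libraries alone called 52 genes, 31 higher and 21 lower. Many of the genes named below lost their calls in that fit. Among them were Sp5, Etv4, Tbx3, L1td1, Lefty1, Lefty2, Dnmt3l, Bmp4, Id1, Inhbb, Lin28a, Fzd5, Fzd7, T, Cdx1 and Cdx2. Others were Perp, Trp53inp1, Krt18, Ldhb, Gnas, Zdbf2, Peg3, Rhox6 and Pramel6, and these names are not a full list.

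**Figure D1:**
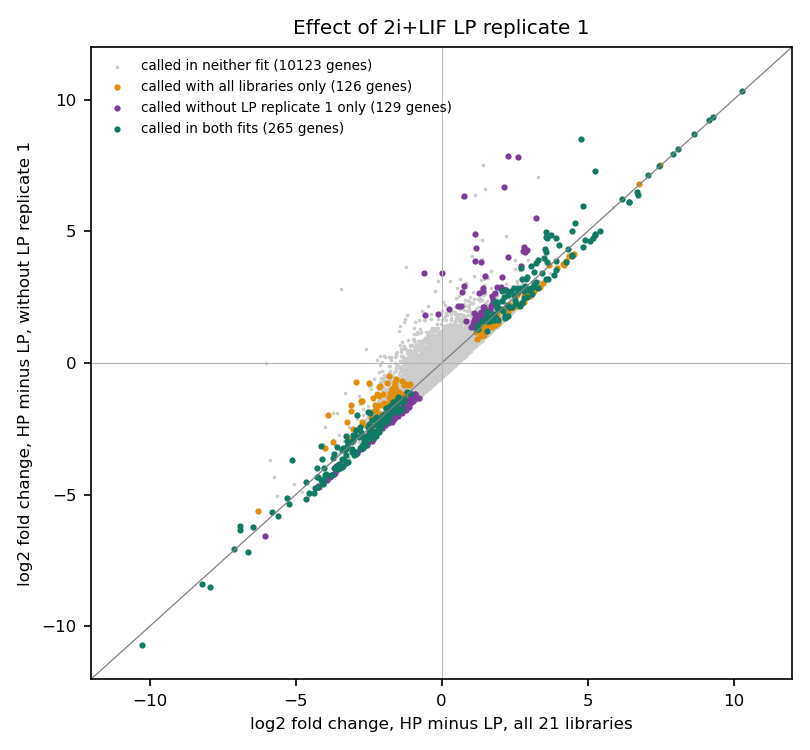
Each point is a gene tested in both fits, with its log2 fold change of HP minus LP over all 21 libraries on the horizontal axis and without 2i+LIF LP replicate 1 on the vertical axis. The 265 genes called in both fits (green) lie on the same side of 0 on both axes, 126 were called with all libraries only (orange) and 129 without LP replicate 1 only (purple).

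The libraries labelled HP replicate 1 and LP replicate 1 lay nearer to the other group at many of these genes. Among genes called without LP replicate 1, that library was nearer to the HP mean than to the mean of the other LP libraries at 166 of 394 (42.1%). HP replicate 1 was nearer to the LP mean at 198 of 462 genes called without it (42.9%). The same share was 5.97% for HP replicate 2, 8.38% for HP replicate 3, 19.6% for LP replicate 2 and 26.1% for LP replicate 3. Each share rests on its own set of genes, called in the fit that left that library out. The labels give no means to check the identity of the replicate 1 libraries, and a swap or mixture of them was not tested.

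Several genes had counts in all libraries of one group and none in the other. Of the genes called, 11 had no count in any LP library and 10 had none in any HP library. Khdc1a (chr1:21349641-21352200), of the KH-domain gene family found in oocytes and early embryos, stood at 6.01, 144.5 and 95.3 CPM in HP replicates 1 to 3 and at 0 in every LP library, at least 150-fold higher in HP (edgeR adjusted p = 0.000492). Its log2 fold change of 10.3 lay between 7.57 and 10.85 over the alternatives run, so the size of the rise depended on the setting. Its near-identical neighbours Khdc1b and Khdc1c had 7, 81 and 30 and 7, 127 and 55 counts in HP and 0 in LP, and reads may be split among these copies. They did not pass the filter on low counts. HP replicate 1 was the lowest HP library for all 3 genes.

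Other genes at 0 in LP included enzymes and a homeobox factor. Dnase2b (chr3:146580985-146615596, minus strand), a DNase II-type nuclease, stood at 7.39, 40.6 and 76.3 CPM in HP, at least 67.7-fold higher than in LP (adjusted p = 0.00296). The log2 fold change of Dnase2b was 9.30, and 6.75 to 9.80 over the alternatives run. Cyp2c70 (chr19:40153353-40187333, minus strand), a cytochrome P450 of bile acid metabolism, stood at 10.2, 46.5 and 56.2 CPM, at least 66.1-fold higher (adjusted p = 0.00127). St8sia2, which adds polysialic acid to NCAM, reached 18.0 to 36.2 CPM and was at least 47.9-fold higher (adjusted p = 0.00086). Msx1, a homeobox factor, reached 5.08 to 22.9 CPM and was at least 28.1-fold higher. The bounds for Gm11238, Oit1, Naip1, Pdzk1 and Gm9376 were 34.4, 21.8, 20.6, 14.6 and 12.7-fold. The calls of Naip1 and Gm9376 were lost without LP replicate 1, with adjusted p of 0.065 and 0.0516. Naip1, Gm9376, Pdzk1, Oit1 and Gm11238 each lost the call without HP replicate 2, and all but Gm11238 without LP replicate 2. A count of 0 allows up to 3 counts, and these bounds cover counting error only. Of the genes of this paragraph, Dnase2b, Gm11238, Naip1 and Oit1 were not called by DESeq2 (adjusted p of 0.406, 0.493, 0.5395 and 0.333).

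Tnni1 (chr1:135779434-135810989), the slow skeletal muscle form of troponin I, had the smallest adjusted p among rises. It stood at 67.9, 168.8 and 181.1 CPM in HP and at 0.698, 0.429 and 2.78 CPM in LP, a log2 fold change of 6.70 ± 0.71 (SE, n = 3 a group; edgeR adjusted p = 1.29e-05), and of 7.84 without LP replicate 3. The lowest HP library was far above every LP library. Cdo1, which oxidises cysteine, and Grsf1, an RNA-binding protein of mitochondrial RNA granules, also rose in all HP libraries: Cdo1 stood at 86.9, 293.9 and 232.6 CPM in HP against 17.3 to 21.4 CPM in LP. Grsf1 stood at 429.3, 815 and 560.5 CPM in HP against 82.4 to 127.5 CPM in LP (log2 fold change 2.51 ± 0.35, adjusted p = 0.00013). Calls of Tnni1, Cdo1 and Grsf1 held in each alternative run.

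Among genes at 0 in HP, Adam23 (chr1:63445891-63596276), a cell-surface protein of the ADAM family without protease activity that binds integrins, stood at 24.4, 104.7 and 109.7 CPM in LP. It was at least 134-fold lower in HP (adjusted p = 2.42e-05), and its lowest LP library was replicate 1. Zfp423 (chr8:87661810-87959595, minus strand), a zinc-finger factor that binds SMADs and EBF proteins, stood at 13.3, 20.6 and 22.8 CPM in LP and was at least 30.3-fold lower in HP (adjusted p = 0.000152). Zfp365, Tek (the angiopoietin receptor), Gm47524, Inka2 and Col4a1 were at least 13.8, 11.2, 10.7, 8.7 and 7.02-fold lower. Basp1, a membrane protein of growth cones, fell by 3.69 ± 0.45 on the log2 scale, from 68.4, 197.3 and 169.2 CPM in LP to 12.0, 14.1 and 6.67 CPM in HP (adjusted p = 2.42e-05). Snx20, a sorting nexin, stood at 41.9, 28.7 and 32.3 CPM in LP and at 0.462 to 1.08 CPM in HP. Serpine2, Cpt1c, Wdr35 and Prrg4 completed the 12 largest falls. Without LP replicate 1, Col4a1 was not called (adjusted p = 0.0665). Zfp365, Tek, Inka2 and Col4a1 lost the call without HP replicate 2.

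By their medians, promoters of the genes that rose and of those that fell held fewer CpG dinucleotides than promoters of all genes tested. RefSeq windows from 250 bases before to 50 after the gene start (GRCm38.p6, the build that mm10 names) were matched by symbol for 8435 of the 10643 genes. The median window held 22 CpG over all genes, 15 over the 140 genes that rose and 17 over the 164 that fell. Windows with 5 or fewer CpG made up 6.43% of all, 20% of those that rose and 9.76% of those that fell. Over the genes called in the same direction without LP replicate 1, these shares were 23.1% of 91 and 10.6% of 113. Of the 11 genes at 0 in LP, 8 had a window, with a median of 4 CpG and 5 windows at or under 5. Of the 10 at 0 in HP, 8 had a window, with a median of 16. Within this comparison, each of these sets could pass the filter on low counts only through the group that had counts. Over the windows of all 27025 genes, tested or not, the median was 7 CpG. These are descriptions of the called genes without a test, and CpG content also goes with expression level and gene class. The following windows, 5′ to 3′ with CpG in capitals, show 3 genes that rose and 2 that fell: Dnase2b (chr3:146615549-146615848, minus strand), Cyp2c70 (chr19:40187237-40187536, minus strand), Crxos (chr7:15882367-15882666, plus strand, the first of 3 listed), Adam23 (chr1:63445641-63445940, plus strand) and Zfp423 (chr8:87959546-87959845, minus strand, the first of 2 listed).
Dnase2b: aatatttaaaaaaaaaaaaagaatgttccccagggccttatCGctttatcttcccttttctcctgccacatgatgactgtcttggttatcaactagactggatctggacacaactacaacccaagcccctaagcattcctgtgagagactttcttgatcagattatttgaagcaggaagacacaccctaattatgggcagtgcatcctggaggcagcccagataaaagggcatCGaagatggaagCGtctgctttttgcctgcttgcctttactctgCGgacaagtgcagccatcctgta
Cyp2c70: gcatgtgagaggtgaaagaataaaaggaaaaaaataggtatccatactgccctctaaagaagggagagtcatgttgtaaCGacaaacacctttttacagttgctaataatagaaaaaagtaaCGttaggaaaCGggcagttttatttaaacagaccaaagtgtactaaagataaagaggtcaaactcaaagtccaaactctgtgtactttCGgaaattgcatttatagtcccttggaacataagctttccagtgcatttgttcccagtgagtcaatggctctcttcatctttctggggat
Crxos: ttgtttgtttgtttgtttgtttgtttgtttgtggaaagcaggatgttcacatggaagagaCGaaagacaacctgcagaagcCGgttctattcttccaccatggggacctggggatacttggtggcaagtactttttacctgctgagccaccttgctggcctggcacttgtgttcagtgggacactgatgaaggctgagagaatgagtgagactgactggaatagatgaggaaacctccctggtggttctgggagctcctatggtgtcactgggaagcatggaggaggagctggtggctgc
Adam23: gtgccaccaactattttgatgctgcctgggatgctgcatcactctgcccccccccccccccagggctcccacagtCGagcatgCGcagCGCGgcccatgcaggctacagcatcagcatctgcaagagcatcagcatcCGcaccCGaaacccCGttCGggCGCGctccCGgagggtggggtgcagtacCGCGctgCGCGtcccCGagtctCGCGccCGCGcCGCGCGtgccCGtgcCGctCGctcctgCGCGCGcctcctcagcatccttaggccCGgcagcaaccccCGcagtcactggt
Zfp423: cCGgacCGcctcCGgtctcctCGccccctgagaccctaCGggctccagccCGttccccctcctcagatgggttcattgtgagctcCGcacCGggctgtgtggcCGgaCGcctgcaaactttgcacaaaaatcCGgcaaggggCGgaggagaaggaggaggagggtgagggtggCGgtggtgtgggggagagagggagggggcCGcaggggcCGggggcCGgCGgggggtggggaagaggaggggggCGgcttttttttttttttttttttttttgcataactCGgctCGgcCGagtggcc
The windows of Dnase2b, Cyp2c70 and Crxos held 4, 4 and 2 CpG, and those of Adam23 and Zfp423 held 31 and 21. Msx1 and St8sia2, with 29 and 20 CpG, show that genes at 0 in LP were not all of the CpG-poor kind. Tek and Zfp365, with 3 and 8 CpG, show that genes at 0 in HP were not all CpG-rich.

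**Figure D2:**
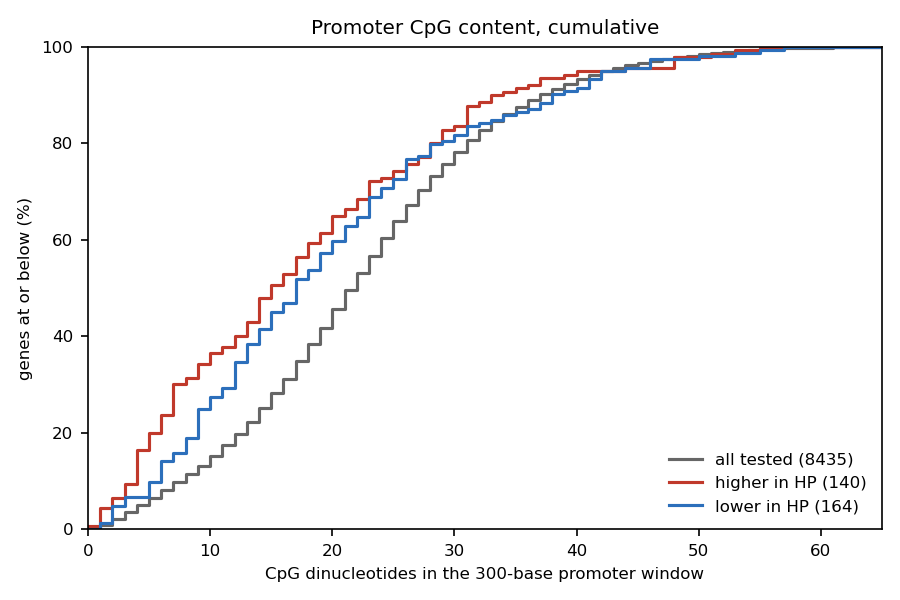
The horizontal axis gives CpG dinucleotides in the 300-base promoter window and the vertical axis the percentage of genes at or below that number, for all genes tested with a window (8435), genes higher in HP (140) and genes lower in HP (164). The curve of genes that rose lies above that of all genes at low CpG, reaching 20% at 5 CpG where all genes reach 6.43%.

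Some of the genes that β-catenin and TCF/LEF factors are known to switch on rose in HP, in a number that depended on single libraries. In a list of 26 Wnt targets and feedback genes, 17 were tested, 7 rose (against 1.63% of all genes) and 3 fell (against 2.05%), and 1 to 6 rose when 1 of the 6 libraries was left out. The list had a median log2 fold change of 1.64, against 0.01 over all genes tested. Sp5 (chr2:70474923-70477729), a transcription factor and direct target, stood at 134.5, 490.3 and 452.8 CPM in HP and at 62.2, 18.4 and 8.35 CPM in LP. Its log2 fold change was 3.62 ± 0.69 (adjusted p = 0.00261) and 4.74 without LP replicate 1. Each HP library was above each LP library, and LP replicate 1 was the highest of its group. The other 6 were Lef1, T, Cdx1, Cdx2, Dkk1 and Nkd1, of which Dkk1 and Nkd1 encode inhibitors of the pathway and T, Cdx1 and Cdx2 are transcription factors of the primitive streak and posterior body.

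Dkk1 stood at 6.93, 53 and 17.2 CPM in HP, at 0 in LP replicates 1 and 2 and at 0.557 CPM in replicate 3. Lef1, the TCF/LEF family member that is itself a target, stood at 25.0, 49.8 and 29.6 CPM in HP against 1.67 to 3.43 CPM in LP (log2 fold change 3.68 ± 0.99, adjusted p = 0.0351). Axin2, the scaffold that feeds back on the pathway, stood at 48.5, 73.1 and 53.4 CPM in HP and at 28.6, 14.2 and 1.67 CPM in LP. Axin2 did not pass the test with all libraries (adjusted p = 0.117) and passed it without LP replicate 1 (log2 fold change 2.85, adjusted p = 0.028).

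The 7 became 3 without LP replicate 1 (Axin2, Sp5 and Dkk1), 4 without LP replicate 2, 2 without LP replicate 3, 6 without HP replicate 1, 1 without HP replicate 2 and 3 without HP replicate 3. Sp5 was called in each of these 6 fits, and Dkk1 in all but that without HP replicate 2. The 3 members that fell were Bmp4, Lefty1 and Lefty2, which also stand in the BMP and Nodal lists. Of 20 other genes of the TCF/LEF and β-catenin machinery, a list that does not hold Lef1, 0 rose and 2 fell (1.63% and 2.05% over all genes), both Wnt receptors: Fzd5 stood at 8.58 to 20.3 CPM in HP against 63.5 to 93.6 in LP (log2 fold change -2.25 ± 0.38, adjusted p = 0.000853), and Fzd7 at 0.953 to 10.8 against 9.08, 55.8 and 45.6 (adjusted p = 0.0153). The call of Fzd7 was lost without LP replicate 2, HP replicate 1 or HP replicate 3.

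The TCF/LEF motif ATCAAAG was searched on both strands of the promoter windows. It occurred in 2.35% of all windows and in 1 of the 11 windows of the Wnt list, that of Sp5, where it lies 104 bases before the start. The Sp5 window (chr2:70474673-70474972, plus strand, GRCm38.p6) is printed with this match, read on the other strand, in capitals.
Sp5: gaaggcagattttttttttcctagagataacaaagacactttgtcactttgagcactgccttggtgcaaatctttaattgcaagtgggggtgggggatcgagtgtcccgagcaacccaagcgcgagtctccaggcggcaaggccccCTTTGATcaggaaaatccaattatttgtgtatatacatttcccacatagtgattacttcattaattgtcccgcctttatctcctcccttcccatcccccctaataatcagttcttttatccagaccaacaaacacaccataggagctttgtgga
A match is a stretch of letters and was not tested as a binding site.

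**Figure D3:**
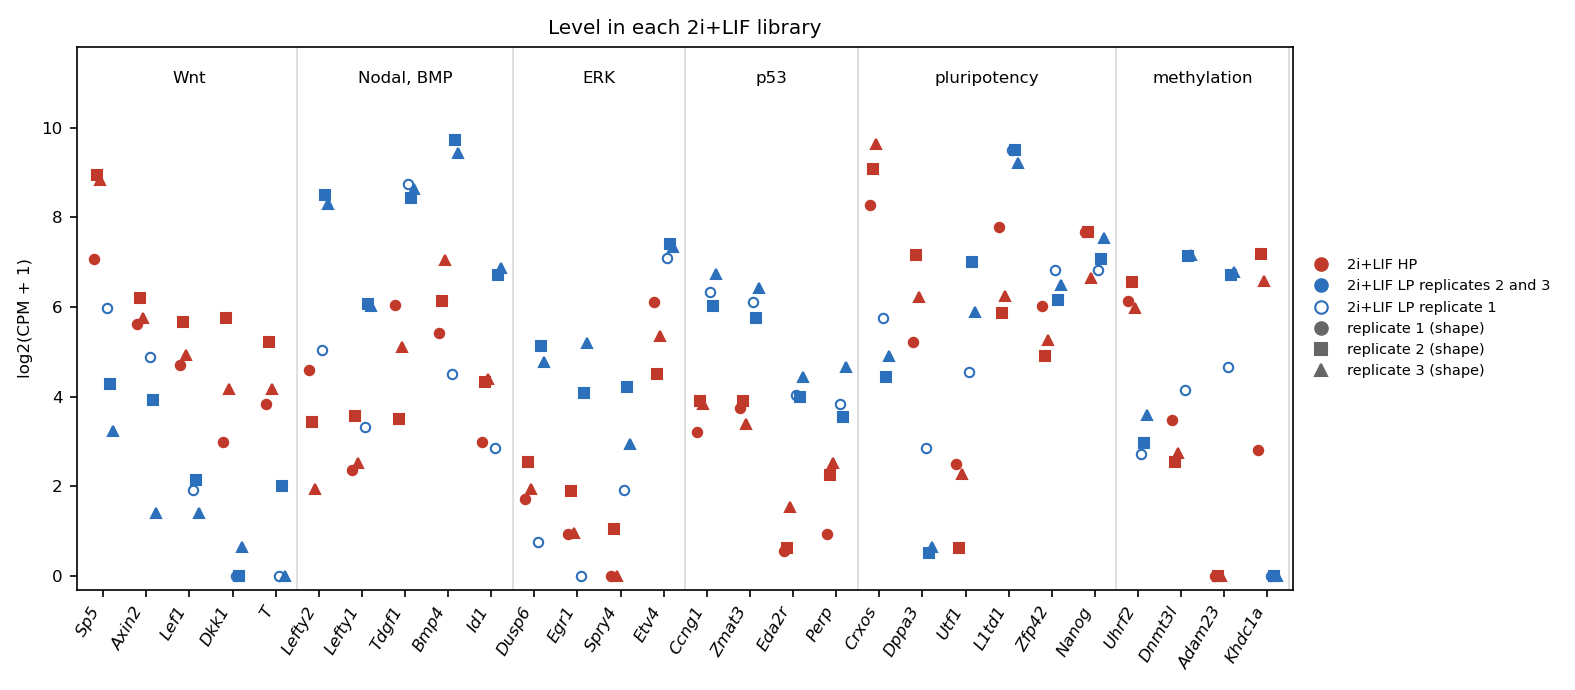
Levels of selected genes in each 2i+LIF library, as log2(CPM + 1) on the vertical axis, for HP (red), LP replicates 2 and 3 (filled blue) and LP replicate 1 (open blue), with genes grouped under headings. Adam23 and Khdc1a are drawn under the heading methylation, though DNA methylation was not measured. Sp5, Crxos and Uhrf2 are higher and Tdgf1, Ccng1 and Zmat3 lower in every HP library, whereas LP replicate 1 lies below every HP library for Dusp6, Egr1, Bmp4 and Id1.

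Of 18 targets and feedback inhibitors of ERK signalling that were tested, 0 rose and 5 fell (Dusp6, Spry4, Etv4, Egr1 and Fos), against 1.63% and 2.05% of all genes, with a median log2 fold change of -0.31, and 7 fell without LP replicate 1. Egr1, an immediate-early transcription factor, stood at 0.924, 2.71 and 0.953 CPM in HP and at 0, 15.9 and 35.6 CPM in LP. Dusp6, the ERK phosphatase, stood at 2.31, 4.87 and 2.86 CPM in HP and at 0.698, 34.3 and 26.2 CPM in LP. LP replicate 1 was thus below every HP library for both genes, and without it the log2 fold changes were -3.94 (adjusted p = 0.00161) and -3.12 (adjusted p = 0.000585), against -3.41 and -2.60 with it. Both lost the call without LP replicate 2, LP replicate 3 or any 1 of the HP libraries (adjusted p up to 0.172 for Egr1 and 0.161 for Dusp6).

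Etv4, an ETS factor downstream of ERK, did not share that pattern. It stood at 68.4, 21.6 and 40.0 CPM in HP and at 134.8, 168.1 and 160.3 CPM in LP (log2 fold change -1.82 ± 0.36, adjusted p = 0.004), with no overlap and with replicate 1 near its group. Etv5 stood at 224.1 to 308.9 CPM in HP and 125 to 282.8 CPM in LP and was not called (adjusted p = 0.743). The count of 5 was 2 without LP replicate 2 or any 1 of the HP libraries and 3 without LP replicate 3. Etv4 was called in each of these fits.

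Both groups carry the name 2i, which includes a MEK inhibitor, so the levels of ERK targets in the other groups are given beside them. Dusp6 averaged 3.35 ± 1.35 CPM (SD, n = 3) in 2i+LIF HP and 2.84 ± 0.75 in PO. It averaged 37.8 ± 4.21 CPM in CH+LIF LP and 37.0 ± 5.72 in CH+LIF HP. In the groups named for LIF alone it averaged 27.4 ± 17.0 CPM in LP but 0.409 ± 0.708 in HP, and Egr1 averaged 37.5 ± 18.4 and 0.376 ± 0.329 CPM in the same groups. The 34.3 and 26.2 CPM of the libraries labelled 2i+LIF LP 2 and 3 lie at the level of the CH+LIF LP and LIF LP libraries. Etv4 averaged 5.23 ± 1.11 CPM in PO, below all 6 libraries compared here. Dusp6 and Egr1 were thus low in LIF HP, whose name holds no MEK inhibitor, and high in 2 libraries whose name holds one, while Etv5 averaged 206.6 CPM in LIF HP and was at a similar level in the 6 libraries compared here. Which agents were present at harvest was not stated, and a mix-up of labels or media was not tested.

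Nodal and BMP ligands act through SMAD proteins. Of 17 Nodal and activin genes tested 4 fell and 0 rose (2.05% and 1.63% over all genes), with a median log2 fold change of -0.59. Tdgf1 (chr9:110939603-110946158, minus strand), the Nodal co-receptor, stood at 65.2, 10.3 and 33.4 CPM in HP and at 428.8, 341.9 and 397.5 CPM in LP, a log2 fold change of -3.41 ± 0.45 (adjusted p = 8.7e-05). The LP libraries lay close together for Tdgf1, replicate 1 included, and without HP replicate 1 the log2 fold change was -4.20. Lefty2 and Lefty1, secreted Nodal antagonists that are themselves Nodal targets, stood at 23.1, 9.74 and 2.86 and at 4.16, 10.8 and 4.77 CPM in HP. In LP replicates 2 and 3 Lefty2 reached 362.5 and 314.5 CPM, but in replicate 1 only 32.1 CPM, and its log2 fold change was -4.22 ± 0.67 (adjusted p = 0.000492), and -5.12 without HP replicate 1. The fourth was Inhbb, an activin subunit, at 0, 0 and 3.81 CPM in HP against 10.6 to 14.7 CPM in LP. Lefty1 lost its call without HP replicate 3, and Inhbb without HP replicate 1 or HP replicate 2. Nodal itself was not called with all libraries (adjusted p = 0.0989) and was called lower without LP replicate 1 (adjusted p = 0.00771).

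Bmp4 and Id1 fell among 13 BMP and Id genes tested, with no rise (2.05% of all genes fell). Bmp4, the ligand, stood at 41.6, 69.8 and 131.6 CPM in HP and at 21.6, 845.9 and 695.9 CPM in LP, and Id1, a BMP-induced inhibitor of bHLH factors, at 6.93, 18.9 and 20.0 against 6.29, 103.4 and 116.9 CPM. LP replicate 1 was below the lowest HP library for both, so the groups overlapped. Their log2 fold changes were -2.70 and -2.34 (adjusted p = 0.0244 and 0.0238), and -3.23 and -2.85 without LP replicate 1. Bmp4 was not called without LP replicate 2, LP replicate 3, HP replicate 1 or HP replicate 2, and Id1 not without any of these or HP replicate 3.

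Pluripotency genes split by member. Of 14 core pluripotency genes tested, 5 fell and 0 rose (2.05% and 1.63% over all genes), with a median log2 fold change of -0.99, and the same count fell without LP replicate 1. Utf1, a chromatin-bound factor of undifferentiated cells, stood at 4.62, 0.541 and 3.81 CPM in HP and at 22.4, 127 and 58.5 CPM in LP (log2 fold change -4.53 ± 0.75, adjusted p = 0.000721). L1td1, an RNA-binding protein, stood at 220.4, 57.4 and 75.3 CPM in HP and at 594 to 724.9 CPM in LP (log2 fold change -2.52 ± 0.40, adjusted p = 0.000492). The log2 fold change of L1td1 was -3.36 without HP replicate 1, and that of Utf1 lay between -5.33 and -3.75 over the alternatives run. Lin28a and Tdgf1 fell as well. The call of Lin28a was lost without HP replicate 2 or 3.

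Pou5f1, Sox2 and Nanog, central factors of pluripotency, and Zfp42, a marker of naive cells, were not called. Pou5f1 stood at 37.0, 27.6 and 56.2 CPM in HP and at 51.7, 45.5 and 26.7 CPM in LP (log2 fold change -0.05 ± 0.40, adjusted p = 0.972), and its processed pseudogenes may take a share of its reads. Nanog stood at 202.4, 202.4 and 99.1 against 111.7, 132.5 and 185.4 CPM (log2 fold change 0.24 ± 0.37, adjusted p = 0.8). Sox2 had a log2 fold change of -1.08 ± 0.34 (adjusted p = 0.0741), which became -0.52 without LP replicate 1, where Sox2 reached 1407 CPM. Zfp42, the gene that carries the reporter, stood at 63.8, 29.2 and 37.2 CPM in HP and at 113.1, 70.4 and 89.1 CPM in LP, with no overlap, but did not pass the test (log2 fold change -1.05 ± 0.36, adjusted p = 0.112).

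Among 16 naive pluripotency factors, Crxos and Dppa3 rose and Tbx3 fell, where 1.63% of all genes rose and 2.05% fell. Crxos (chr7:15882617-15904020), a homeobox gene of the early embryo, stood at 307.8, 539 and 789.3 CPM in HP and at 53.1, 20.6 and 28.9 CPM in LP (log2 fold change 4.01 ± 0.47, adjusted p = 2.42e-05). Dppa3 (Stella), a maternal factor that protects the oocyte genome from methylation changes, stood at 36.5, 141.8 and 73.4 CPM in HP and at 6.29, 0.429 and 0.557 CPM in LP. Dppa3 averaged 2.69 ± 2.12 CPM in PO, 1.92 ± 2.26 in CH+LIF HP and 2.53 ± 2.57 in LIF HP, below the lowest 2i+LIF HP library. Tbx3 stood at 87.7 to 135.4 CPM in HP against 341 to 535.7 CPM in LP (log2 fold change -1.91 ± 0.36, adjusted p = 0.00214). Klf2, Klf4, Klf5, Esrrb and Tfcp2l1 had log2 fold changes of -0.62, -0.08, -0.13, -0.31 and -0.26 and were not called. Calls of Crxos, Dppa3 and Tbx3 held without each of the 6 libraries. The count of 1 fall became 2 without LP replicate 2 or LP replicate 3 and 3 without HP replicate 1.

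Genes of the p53 pathway, named for the transcription factor activated by DNA damage, fell or were not called. Of 20 members tested, 7 fell and 0 rose (2.05% and 1.63% over all genes), with a median log2 fold change of -1.15. They were Trp53 itself, Ccng1, Zmat3, Sesn2, Perp, Trp53inp1 and Eda2r. Ccng1 (chr11:40748552-40755311, minus strand), cyclin G1, stood at 8.32, 14.1 and 13.3 CPM in HP and at 79.6, 64.3 and 105.8 CPM in LP (log2 fold change -2.81 ± 0.41, adjusted p = 0.000212). Zmat3, an RNA-binding target, stood at 12.5, 14.1 and 9.53 against 68.4, 53.2 and 84.6 CPM (-2.49 ± 0.37, adjusted p = 0.000311). Eda2r, a death-domain receptor of the TNF receptor family, stood at 0.462, 0.541 and 1.91 against 15.4, 15.0 and 20.6 CPM (-4.27 ± 0.67, adjusted p = 0.000471). For these 3 genes LP replicate 1 lay with its group, and the log2 fold changes without it were -2.82, -2.46 and -4.32. Without HP replicate 3 that of Eda2r was -4.94.

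Not all p53 targets moved together. Cdkn1a, the p21 inhibitor of cyclin-dependent kinases, stood at 275, 266.3 and 257.4 CPM in HP and at 289.1, 249.6 and 127.5 CPM in LP (log2 fold change 0.27 ± 0.35, adjusted p = 0.763), and Mdm2, Bax, Phlda3 and Gdf15 were not called either. Trp53 stood at 257 CPM in LP replicate 1, against 64.3 and 38.4 CPM in the other LP libraries and 12.4 to 40.2 CPM in HP, and was not called without that library (log2 fold change -0.86, adjusted p = 0.469). Sesn2 was lost too (adjusted p = 0.0576), leaving 5 of the 7. The count was 4 without HP replicate 2 and 5 without HP replicate 3. A p53 half-site, the 10-base decamer searched on both strands, occurred in 6.58% of all windows and in 7 of the 16 windows of this list. The site did not go with the falls: Ccng1 and Trp53 held it and Eda2r and Sesn2 did not, while Cdkn1a, Mdm2 and Bax, not called, held it. Over all called genes it occurred in 7.93% of windows of genes that fell and 9.29% of those that rose. The window of Ccng1 (chr11:40755237-40755536, minus strand, GRCm38.p6) holds the half-site 185 bases before the start, in capitals.
Ccng1: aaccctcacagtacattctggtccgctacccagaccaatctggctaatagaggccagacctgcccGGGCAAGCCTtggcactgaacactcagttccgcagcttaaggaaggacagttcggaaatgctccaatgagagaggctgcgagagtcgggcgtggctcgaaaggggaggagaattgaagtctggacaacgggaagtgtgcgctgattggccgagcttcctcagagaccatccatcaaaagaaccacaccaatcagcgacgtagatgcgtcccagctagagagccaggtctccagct
No window was at hand for Zmat3.

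Of 13 writers and erasers of DNA methylation tested, 1 rose, 2 fell and 10 were not called, against 1.63% and 2.05% of all genes tested that rose and fell. The 2 falls were 4 without HP replicate 1 and 1 without HP replicate 2 or HP replicate 3. Uhrf2 (chr19:30030513-30093722), a ring-finger protein that binds hydroxymethylated DNA, stood at 69.3, 93.1 and 62.0 CPM in HP and at 5.59, 6.86 and 11.1 CPM in LP (log2 fold change 3.24 ± 0.45, adjusted p = 0.00013). Its paralogue Uhrf1, which recruits Dnmt1, was not called (log2 fold change -0.28 ± 0.45, adjusted p = 0.811). Dnmt3l, the cofactor of de novo methylation, stood at 10.2, 4.87 and 5.72 CPM in HP, at 16.8 CPM in LP replicate 1 and at 139.4 CPM or more in LP replicates 2 and 3 (-3.80 ± 0.64, adjusted p = 0.000831). The methyltransferase Dnmt3b was not called with all libraries (adjusted p = 0.0516) and was called lower without LP replicate 1 (adjusted p = 0.0295), and Dnmt3a and Dnmt1 were not called. Tet2, an oxidase of 5-methylcytosine, fell with all libraries (adjusted p = 0.0464) and not without LP replicate 1 (adjusted p = 0.238). DNA methylation itself was not measured.

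Genes known to depend on promoter or imprint methylation were described from the same fit. Of 26 germline genes tested, 1 rose (Rhox6, at 47.1 to 83.9 CPM in HP against 16.1 to 21.9 CPM in LP, adjusted p = 0.0407) and 0 fell, against 1.63% and 2.05% of all genes, with a median log2 fold change of 0.75. DESeq2 called 5 of the 26 higher and limma-voom 4, and each called 1 lower. In edgeR the count of 1 was 2 without LP replicate 1 (Rhox2a and Brdt, with Hsf2bp lower), 3 without HP replicate 1 and 0 without LP replicate 2, HP replicate 2 or HP replicate 3. Dazl stood at 139.6, 410.2 and 181.1 CPM in HP and at 55.2, 54.9 and 126.4 CPM in LP without passing (adjusted p = 0.0726). Of 30 imprinted genes, Peg3 and Mkrn3 rose and Gnas and Zdbf2 fell. Peg3, a paternally expressed zinc-finger gene, stood at 55.5, 182.9 and 180.2 CPM in HP against 42.9 to 50.7 CPM in LP (log2 fold change 1.60 ± 0.41, adjusted p = 0.0272). Gnas, the stimulatory G-protein alpha subunit, stood at 60.1 to 74.4 CPM in HP against 156.4 to 182.6 CPM in LP (-1.30 ± 0.29, adjusted p = 0.0106), at a locus with overlapping transcripts. Without LP replicate 1, Rhox6 and Mkrn3 were not called (adjusted p = 0.0743 and 0.0964). Mkrn3 lost its call in 21 of 32 alternatives, and Gnas without HP replicate 2. The call of Peg3 was lost without LP replicate 2, LP replicate 3, HP replicate 2 or HP replicate 3.

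Of a list of 32 genes linked to the 2-cell stage, 4 were tested, and Pramel6 and Khdc1a rose (1.63% of all genes rose). Pramel6, a leucine-rich protein of the early embryo, stood at 26.8, 100.7 and 151.6 CPM in HP and at 18.2, 2.15 and 3.9 CPM in LP (log2 fold change 3.58 ± 0.77, adjusted p = 0.0075). The count of 2 became 4 without LP replicate 1, 2 or 3 or HP replicate 1, and also without any 1 of the other 15 libraries, where the filter on low counts was applied anew. It was 1 without HP replicate 3, where Pramel6 lost its call. The log2 fold change of Pramel6 was 4.96 without LP replicate 1. The 8 defining markers summed to 11.9 to 15.3 CPM in HP and 0 to 4.45 CPM in LP. Zscan4c had 8, 4 and 1 counts in HP replicates 1 to 3 and 0 in LP, too few to test, and Zscan4f and Gm6763 had no count in any of the 6 libraries. In bulk RNA, a change in the share of cells of a type cannot be told apart from a change in RNA per cell.

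Trophoblast and mesendoderm markers were at higher summed levels in HP. Of 10 trophoblast markers, the summed level was 134 to 186 CPM in HP and 72.9 to 105 CPM in LP, Elf5 was at 0 in all 6 libraries, and Cdx2, Krt7 and Krt18 rose (1.63% of all genes rose). Of the 8 genes of the trophoblast list that were tested, 4 had a positive fold change, and 2 stood higher in every LP library than in any HP library, as did 8.43% of all genes. The count of 3 was 2 without LP replicate 1 or HP replicate 1, 1 without LP replicate 2, LP replicate 3 or HP replicate 2, and 0 without HP replicate 3. Krt18, an epithelial keratin, stood at 8.32, 33.0 and 56.2 CPM in HP against 1.72 to 3.49 CPM in LP (log2 fold change 3.60 ± 0.81, adjusted p = 0.0118), and its call was lost without LP replicate 2 or HP replicate 3 (log2 fold change 2.93 without the latter). Mesendoderm markers summed to 22.9 to 60.1 CPM in HP and 4.89 to 6.68 CPM in LP, with Cer1 at 0. In the mesendoderm list 3 members rose, T and Msx1 among them, and Tbx3 fell, of 7 tested (1.63% and 2.05% over all genes). The 3 rises were 2 to 4 when any 1 library was left out.

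Neural markers summed to 787 to 1340 CPM in HP and 1160 to 2180 CPM in LP, with Zic1 and Hes5 at 0, and Sox1, Ncam1 and Nefh fell among 10 tested (2.05% of all genes fell). Sox1, the early neural plate factor, stood at 0, 1.62 and 0 CPM in HP and at 0.698, 13.7 and 17.3 CPM in LP (adjusted p = 0.022), so the groups overlapped. Its call was lost without LP replicate 2, LP replicate 3, HP replicate 1 or HP replicate 3, and with limma-voom. Ncam1 and Nefh were highest in LP replicate 1, at 713.1 and 76.8 CPM, and were not called without it (adjusted p = 0.0964 and 0.397). The neural count of 3 was 2 without LP replicate 1 (Sox1 and Sox11), 1 without HP replicate 2 and 0 without HP replicate 3. Fibroblast and feeder markers summed to 135 to 276 CPM in HP and 198 to 574 CPM in LP, with Col3a1, Dcn and Postn at 0. Primitive endoderm markers summed to 37 to 63.9 CPM in HP and 35.6 to 84.5 CPM in LP. The part of other cell types in the calls was not tested.

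Of 20 extracellular matrix and protease genes tested, 5 fell with all libraries (2.05% of all genes fell), 3 without LP replicate 1 and 2 without HP replicate 2 or HP replicate 3. Of 25 glycolysis and pyruvate genes, 1 rose and 4 fell with all libraries (1.63% and 2.05% over all genes), and 1 fell without LP replicate 1, HP replicate 2 or HP replicate 3. Slc16a3, a lactate exporter, fell in both fits, from 53.8, 24.4 and 27.3 CPM in LP to 2.31, 1.62 and 1.91 CPM in HP (log2 fold change -4.10 ± 0.64, adjusted p = 0.000471). Ldhb, the lactate dehydrogenase subunit that rose, stood at 60.5, 182.9 and 129.6 CPM in HP against 16.8 to 36.0 CPM in LP (2.32 ± 0.49, adjusted p = 0.0059). Its call was lost without HP replicate 2. Tpi1, Slc16a1 and Pfkp were called with all libraries and lost the call when LP replicate 1 or any 1 of the HP libraries was left out, among other settings. Tpi1 and Slc16a1 were highest in LP replicate 1, at 173.9 and 319.9 CPM. Plod2, a collagen lysyl hydroxylase, stood at 4.62, 4.87 and 8.58 CPM in HP against 67.7, 29.6 and 48.4 CPM in LP (-3.05 ± 0.48, adjusted p = 0.000481).

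**Figure D4:**
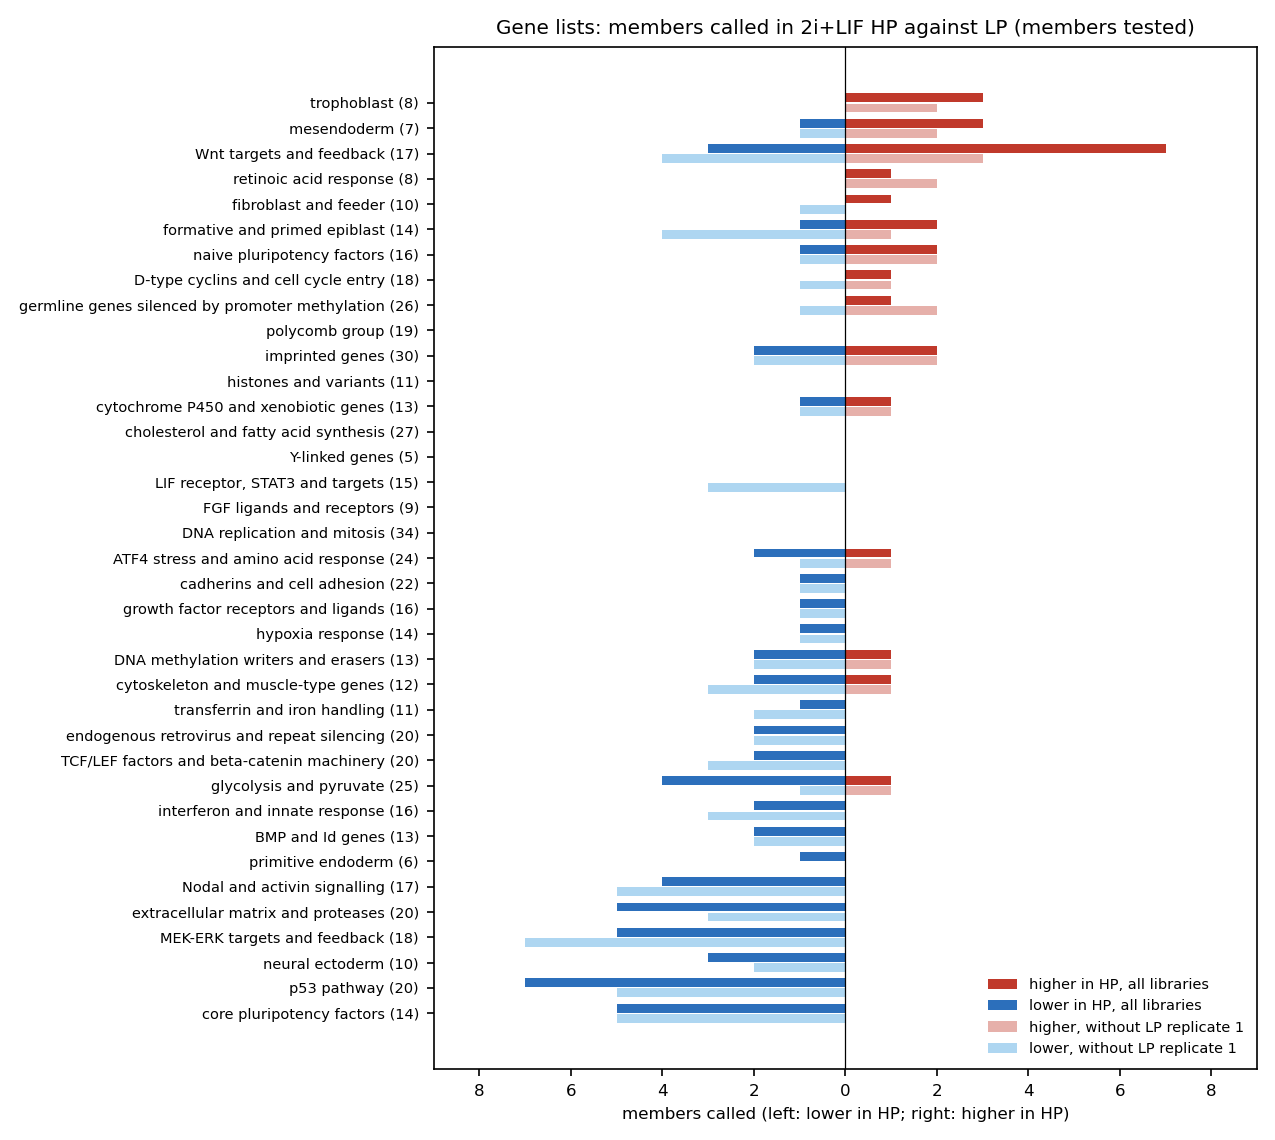
Members called higher (right, red) and lower (left, blue) in HP for each gene list, with all libraries (dark) and without LP replicate 1 (pale), with the number of members tested in brackets. The p53 list has 7 members lower and 0 higher, and the Wnt list has 7 higher with all libraries and 3 without LP replicate 1.

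Several lists held no called gene, where 3.67% of all genes were called, so a count of 0 or near it in lists of this size lies close to the background. Of 34 DNA replication and mitosis genes, edgeR called 0 (2 at an unadjusted p under 0.05), and DESeq2 and limma-voom called 0 as well, with a median log2 fold change of -0.08. Of 27 cholesterol and fatty acid synthesis genes edgeR, DESeq2 and limma-voom called 0 (2 at an unadjusted p under 0.05). Of 15 genes of the LIF receptor, STAT3 and its targets edgeR called 0 (7 at an unadjusted p under 0.05), DESeq2 1 and limma-voom 5. Without LP replicate 1, Socs3, Pim3 and Junb of that list fell. Socs3, the STAT3-induced feedback inhibitor, stood at 14.8, 9.2 and 0.953 CPM in HP and at 5.59, 34.7 and 49.0 CPM in LP. Of 19 polycomb genes edgeR called 0 (5 at an unadjusted p under 0.05), DESeq2 2 and limma-voom 0. In counts simulated with the depth and spread of these libraries, edgeR recovered 48% of 4-fold and 89.8% of 8-fold changes and called 9 genes that had not been changed. No simulated library stood apart as LP replicate 1 did, so recovery in the deposited libraries may differ.

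Stra8, a retinoic acid-induced germ cell gene, changed its sign without LP replicate 1. It stood at 21.7, 27.6 and 85.8 CPM in HP and at 195.6, 6.86 and 1.11 CPM in LP. It was not called with all libraries (log2 fold change -0.60, adjusted p = 0.774) and was higher in HP without LP replicate 1 (3.40, adjusted p = 0.00297).

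Whether HP and LP differed otherwise in 2i+LIF than in the other media was tested as a difference of differences. Against CH+LIF, 2 genes passed (0.0188%), both lower, and 26 passed without LP replicate 1. Adam23 stood at 0 in 2i+LIF HP and 79.6 ± 47.8 CPM (SD, n = 3) in 2i+LIF LP, but at 94.6 ± 38.3 and 132 ± 34.5 CPM in CH+LIF HP and LP (edgeR adjusted p of the difference = 0.00471). Low levels of Adam23 were not particular to 2i+LIF HP. It stood at 1.71 ± 1.57 and 196 ± 29.1 CPM in LIF HP and LP, and at 4.69 ± 5.04 CPM in PO. Tdgf1 stood at 36.3 ± 27.6 and 389 ± 44.0 CPM in 2i+LIF HP and LP, and at 469 ± 126 and 452 ± 110 CPM in CH+LIF HP and LP, a difference of -3.47 ± 0.60 on the log2 scale (adjusted p = 0.0219).

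Against LIF, 16 genes passed (0.15%), 3 higher (0.0282%) and 13 lower (0.122%), and without LP replicate 1 there were 21, of which 3 were higher and 18 lower. The 3 higher were Uhrf2, Peg3 and Ppfibp2. Uhrf2 stood at 17.5 ± 3.13 and 23.4 ± 4.68 CPM in LIF HP and LP, and the difference from 2i+LIF was 3.67 ± 0.62 (adjusted p = 0.00681). Peg3 stood at 139 ± 72.8 and 46.1 ± 4.07 CPM in 2i+LIF HP and LP and at 12.3 ± 7.63 and 41.2 ± 8.08 CPM in LIF HP and LP (3.30 ± 0.61, adjusted p = 0.0135). Tdgf1 and Ccng1 were among the 13 lower genes. Ccng1 stood at 11.9 ± 3.13 and 83.2 ± 20.9 CPM in 2i+LIF HP and LP and at 162 ± 66 and 128 ± 25.3 CPM in LIF HP and LP (-3.15 ± 0.54, adjusted p = 0.00706).

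Krtdap and Trpm1 differed more between HP and LP in LIF than in 2i+LIF. Krtdap, a keratinocyte protein, stood at 32.3 ± 14.2 and 21.7 ± 10.7 CPM in 2i+LIF HP and LP and at 294 ± 87.9 and 0.479 ± 0.829 CPM in LIF HP and LP (adjusted p = 6.15e-06). Trpm1, an ion channel, stood at 80.6 ± 19.8 and 81.0 ± 24.8 CPM in 2i+LIF HP and LP and at 70.1 ± 15.1 and 2.16 ± 1.96 CPM in LIF HP and LP (adjusted p = 0.000122). Snx20 fell in 2i+LIF and stood at 23.1 ± 13.6 and 16.3 ± 7.04 CPM in LIF HP and LP (adjusted p = 0.000565).

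Chromosome-wide levels in HP and LP were compared as well. For each library, the median of gene-centred log2 CPM on a chromosome was taken relative to that of all autosomal genes. With limma, 0 of 20 chromosomes passed and 1 had an unadjusted p under 0.05. That was chromosome 9, with a difference of -0.08 (adjusted p = 0.852). Without LP replicate 1, 0 passed and 1 had an unadjusted p under 0.05. Called genes were spread over all 20, from 1.75% of the tested genes of chromosome 16 to 6.23% of those of chromosome 18.

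**Figure D5:**
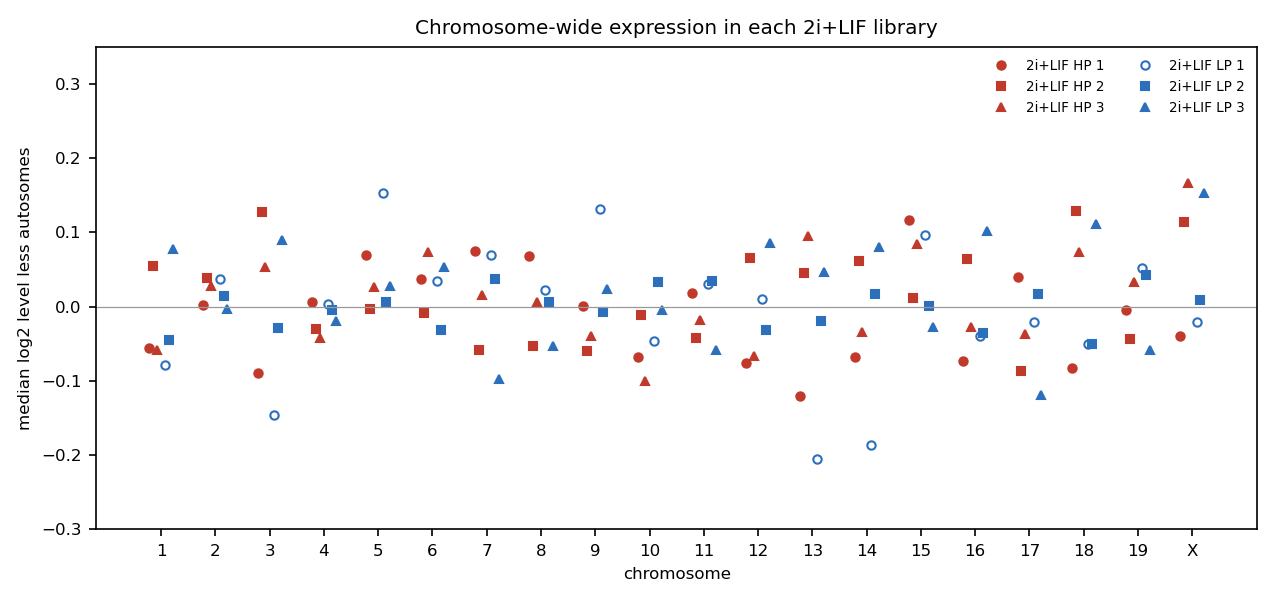
Median log2 level of the genes of each chromosome (horizontal axis) in each 2i+LIF library, relative to autosomal genes (vertical axis, log2). HP (red), LP replicates 2 and 3 (filled blue) and LP replicate 1 (open blue) overlap on most chromosomes, and the lowest values, on chromosomes 13 and 14, belong to LP replicate 1.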

How the data were processed

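Each library is a table of whole-number gene counts as deposited, 1 value for each of 31053 Ensembl IDs. bcl2fastq, STAR 2.6.0a, HTSeq and the build mm10 are named, per the submitters' processing notes. The annotation and strand setting are not given in the sources used here, so 121 called genes that overlap another listed gene may share reads. The 5 summary entries at the end of each table were left out throughout. Symbols came from GENCODE M21. The counts entered 1 quasi-likelihood fit in edgeR 4.0.16 (R 4.3.3) over all 21 libraries, with a coefficient per group, 14 residual degrees of freedom, TMM scaling and filterByExpr. All tests were two-sided, and p-values were adjusted by Benjamini-Hochberg over the 10643 genes tested. log2 CPM used a prior count of 2. Chromosome medians were tested with limma 3.58.1. A fold against a group without counts is a lower bound computed against 3 counts over the group.

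Members and lists (40 lists, 832 genes, 808 with a matching symbol, 568 tested) were chosen with earlier results of these data known. Named were genes of the lists, the 12 largest changes each way among called genes with a mean of at least 5 CPM in a group and no overlap, the 5 smallest p each way, and the 3 largest differences each way between media. Stra8, of the retinoic acid list, was chosen after its values were seen. Alternatives were each library left out, other tests (DESeq2 1.42.0, limma-voom), scalings and filters, thinned counts, a replicate block and a fit of the 6 libraries alone. The steps were tested on simulated counts. Some list members that were tested and counted are not reported here by name.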

Additional observations from a re-analysis of the deposited data

Results flagged for a closer look

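The tests of a difference between media passed for 18 pairs of gene and medium, with edgeR adjusted p given here. Against CH+LIF these were Adam23 (0.00471) and Tdgf1 (0.0219), at which HP stood below LP in 2i+LIF and the CH+LIF groups overlapped. Against LIF, Uhrf2 (0.00681), Peg3 (0.0135) and Ppfibp2 (0.0459) had a higher ratio of HP to LP in 2i+LIF. The other 13 had a lower ratio in 2i+LIF: Krtdap (6.15e-06), Trpm1 (0.000122), Snx20 (0.000565), Tdgf1 (0.00681), Ccng1 (0.00706), S100a13 (0.00823), Cyba (0.0117), Fxyd6 (0.0209), Serpinb1a (0.0214), Srrm4os (0.0255), Arrdc4 (0.0322), Dhx16 (0.036) and Gm31659 (0.0378).

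S100a13 stood at 133 ± 42.4 CPM (SD, n = 3) in 2i+LIF HP and 108 ± 87.2 in 2i+LIF LP, but at 1072 ± 330 in LIF HP and 34.8 ± 16.4 in LIF LP. Ppfibp2 stood at 36.0 ± 4.05 and 26.2 ± 11.1 CPM in 2i+LIF HP and LP and at 2.90 ± 0.78 and 20.0 ± 7.67 CPM in LIF HP and LP. Arrdc4 stood at 4.32 ± 2.66 and 28.6 ± 12.5 CPM in 2i+LIF HP and LP and at 43.3 ± 13.5 and 29.6 ± 4.35 CPM in LIF HP and LP. Without LP replicate 1, Dhx16 did not pass (adjusted p = 0.0645).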

How the results depend on the processing

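The 391 genes called over all libraries became 672 with DESeq2, 634 without the filter on low counts, and 627 without both 2i+LIF LP replicate 1 and 2i+LIF PO replicate 1. A fit of the 6 libraries alone gave 52 genes, and 332 when LP replicate 1 was also left out. Leaving out 1 library in turn gave 136 (without HP replicate 2) to 590 (without PO replicate 1). The share of calls higher in HP was 44.2% in the main result, 56.4% with limma-voom, 53.3% without HP replicate 1, 34.9% without LP replicate 2 and 59.6% with the 6 libraries alone. The difference from CH+LIF gave 1 to 26 genes over the left-out libraries, 39 without LP replicate 1 and PO replicate 1, 4 without the PO group, 35 with DESeq2, 48 without the filter and 18 with limma-voom, against 2. The difference from LIF gave 7 to 68 genes over the left-out libraries, 167, 34, 130, 1.6e+02 (45 higher and 111 lower) and 160 under those same settings, against 16. The cause was not tested. Of 98 named genes called, 24 kept their call in every alternative, 50 lost it in 1 to 5, 24 in more, and 0 changed direction.

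The replicate numbers are shared by the groups. Deviations of same-numbered HP and LP libraries from their group means correlated at 0.165, 0.209 and -0.0561. Those of differently numbered libraries correlated at -0.338 to 0.323. These values cannot settle whether same-numbered libraries were paired, as each group holds 3 libraries. With the replicate block 437 genes were called. No chromosome passed in any alternative run. In counts simulated from these libraries, 48% of 4-fold changes were called. Changes of that size were thus often missed at the simulated depth, spread and number of libraries. These were not varied separately, and no simulated library stood apart as LP replicate 1 did.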
